A study of Homo sapiens with 34 samples.

Results

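HOX genes encode homeodomain transcription factors and lie in 4 clusters, HOXA to HOXD. In this series 26 of the 39 human HOX genes were found among the 28071 genes of the RNA-seq table, by gene symbol, and 25 of them are described. Another 13 (HOXA4, HOXA5, HOXA6, HOXA10, HOXB4, HOXB5, HOXC5, HOXC6, HOXC8, HOXC9, HOXD4, HOXD8 and HOXD9) had no row there, and their RNA was not analysed here. Of the 25, 19 were also in the table of RNA immunoprecipitation (RIP), and all 39 were used for the chromatin peaks.

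HOX genes are numbered by their order in the cluster, and in the embryo that order follows the order in which the genes are switched on along the body axis. High-numbered (posterior) genes are active in the lower trunk and the urogenital tract, where HOXB13 marks the prostate lineage. Polycomb repressive complex 2 (PRC2) keeps unused HOX genes silent: its enzyme EZH2 trimethylates lysine 27 of histone H3 (H3K27me3), often over long stretches of a cluster.

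The cells were LNCaP, an established human prostate cancer line. Androgen-dependent cells (AD) grew in RPMI1640 medium, and androgen-independent cells (AI) in RPMI1640 with charcoal-stripped serum, which lacks most steroids, so the cell type and the serum differ together. RNA-seq covered AD and AI cells that were untreated, transfected with a mock siRNA (mock) or transfected with an siRNA against EZH2 (siEZH2) and collected after 24 h, with 2 libraries in each of the 6 groups. RIP with an EZH2 antibody or control IgG had 2 libraries in each of 4 groups. H3K27me3 peaks came from 2 AD and 2 AI samples, and EZH2 peaks from 2 AD samples and 1 AI sample. The label protocol describes transfection of LNCaP/abl cells, but siRNA names also stand in AD titles, and groups were taken from the titles. The labels do not tie the replicates to separate cultures. A p-value here therefore reflects only how far these libraries spread, which may be technical.

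The untreated and the transfected RNA-seq libraries stood apart. Mitochondrially encoded genes held 18.36% to 33.45% of the summed RPKM (reads per kilobase of gene, scaled to library size) in the untreated libraries and 2.1% to 4.07% in the transfected ones. Estimated depth was 17.4 to 58.4 M (mega) reads in untreated and 7.54 to 12.7 M reads in transfected libraries, although 3 of the transfected estimates are not settled. Replicates correlated at 0.973 to 0.99 across genes. The luminal markers were all above 1 RPKM in some library (9 of 9, HOXB13 among them, summed level 2602.2 to 6935.1 RPKM). Of the 4 basal markers, KRT5 and TP63 were under 0.1 RPKM in every library. The other 2, KRT14 and ITGB4, reached 4.56 and 4.58 RPKM, each in an AD library. Blood markers summed to 0 to 0.09 RPKM and endothelial markers to 0.08 to 3.53 RPKM.

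Promoter sequences were available from RefSeq (GRCh38.p14) for 14 of the 25 genes, and 3 are shown as examples of the chromatin patterns at HOX starts. HOXD12 had H3K27me3 at its start site in all 4 samples, and HOXD11 in 3 samples with an EZH2 peak in 1. HOXC4 had it in none at the start scored here, while its RNA was measurable. Downstream of that start, toward the end of the cluster, AD replicate 2 and AI replicate 2 each had an H3K27me3 peak. HOXC4 is therefore an example of an unmarked start only, not of an unmarked gene. None of the patterns was particular to the gene shown. HOXD4 shared that of HOXD12, and HOXB7, HOXB8 and HOXD8 that of HOXD11. HOXC13 and HOXB13 likewise had measurable RNA without H3K27me3 at the start, as did HOXC10 in AD cells. In the AI libraries HOXC10 was at 0 to 0.06 RPKM, also without the mark at its start. Each of the 3 sequences runs 5′ to 3′ on the plus strand from 250 bases before the start site to 50 after it. Capitals mark CG dinucleotides, searched as the letters CG, which read the same on either strand.
HOXC4, chr12:54016638-54016937: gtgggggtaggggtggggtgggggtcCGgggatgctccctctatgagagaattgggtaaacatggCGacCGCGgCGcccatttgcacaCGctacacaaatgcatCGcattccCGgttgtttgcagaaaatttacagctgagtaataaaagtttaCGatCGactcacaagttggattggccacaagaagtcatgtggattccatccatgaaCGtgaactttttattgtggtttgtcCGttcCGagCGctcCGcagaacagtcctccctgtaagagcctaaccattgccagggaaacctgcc
HOXD12, chr2:176099545-176099844: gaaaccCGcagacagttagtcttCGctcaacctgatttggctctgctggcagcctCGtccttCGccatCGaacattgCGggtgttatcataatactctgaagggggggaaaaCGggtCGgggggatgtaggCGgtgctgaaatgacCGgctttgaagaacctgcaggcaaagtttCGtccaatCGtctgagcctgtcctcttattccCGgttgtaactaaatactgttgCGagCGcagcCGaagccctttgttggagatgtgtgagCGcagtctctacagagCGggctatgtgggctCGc
HOXD11, chr2:176107030-176107329: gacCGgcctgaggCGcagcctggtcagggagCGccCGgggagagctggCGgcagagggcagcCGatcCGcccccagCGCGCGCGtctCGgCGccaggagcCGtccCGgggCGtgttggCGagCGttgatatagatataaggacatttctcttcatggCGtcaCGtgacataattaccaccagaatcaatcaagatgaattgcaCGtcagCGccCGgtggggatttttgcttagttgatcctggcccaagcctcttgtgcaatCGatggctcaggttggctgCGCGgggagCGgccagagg
The HOXC4 window held 15 CG dinucleotides, HOXD12 19 and HOXD11 27. At least as many were found in 62.3%, 55.0% and 36.4% of the 22199 protein-coding promoter windows of the same length. Over the 14 HOX windows the count ran from 11 to 44 with a median of 22.5, beside a median of 21 over all protein-coding windows.

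HOXB13 held most of the RNA of the 25 HOX genes described, and HOX genes without a row are not in that sum. HOXB13 (ENSG00000159184.7), which partners the androgen receptor in prostate cells, stood at 206.25 and 204.04 RPKM in the untreated AD libraries and at 151.99 and 128.44 RPKM in the untreated AI libraries. It was 188.86 and 179.61 RPKM in AD mock, 145.56 and 143.88 in AI mock, 193.17 and 190.57 in AD siEZH2, and 158.51 and 158.8 in AI siEZH2. All 6 AD libraries lay above all 6 AI libraries. HOXB13 alone made up 80.9% to 96.7% of the summed RPKM of the 25 HOX genes.

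The other 24 genes summed to 22.66 and 24.27 RPKM in untreated AD cells and to 41.66 to 45.74 RPKM in the transfected AD libraries. In AI cells they summed to 12.43 and 16.09 RPKM untreated and to 4.91 to 8.54 RPKM after transfection. Only 8 of the 25 genes reached a group mean of 1 RPKM in any group: HOXB6, HOXB7, HOXB9, HOXB13, HOXC4, HOXC10, HOXC12 and HOXC13. HOXB9, HOXB13, HOXC10, HOXC12 and HOXC13 are posterior genes, whereas HOXC4, HOXB6 and HOXB7 lie further toward the anterior end of their clusters.

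RNA of the HOXA and HOXD genes described was near the lower end of the scale in every library. Of the 25 genes, 17 did not reach 0.5 RPKM in 2 libraries and were left out of the main test: 6 HOXA genes, 4 of 8 HOXB genes, 1 of 5 HOXC genes and all 6 HOXD genes. Their highest single value was 1.12 RPKM for HOXA7 in AD siEZH2 replicate 2, and 45.6% of their values (93 of 204) were listed at 0. The highest value was 0.74 RPKM among these HOXD genes, 0.33 RPKM among these HOXB genes and 0.06 RPKM for the HOXC gene, HOXC11. The 8 genes tested were HOXB6, HOXB7, HOXB9, HOXB13, HOXC4, HOXC10, HOXC12 and HOXC13.

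**Figure D1:**
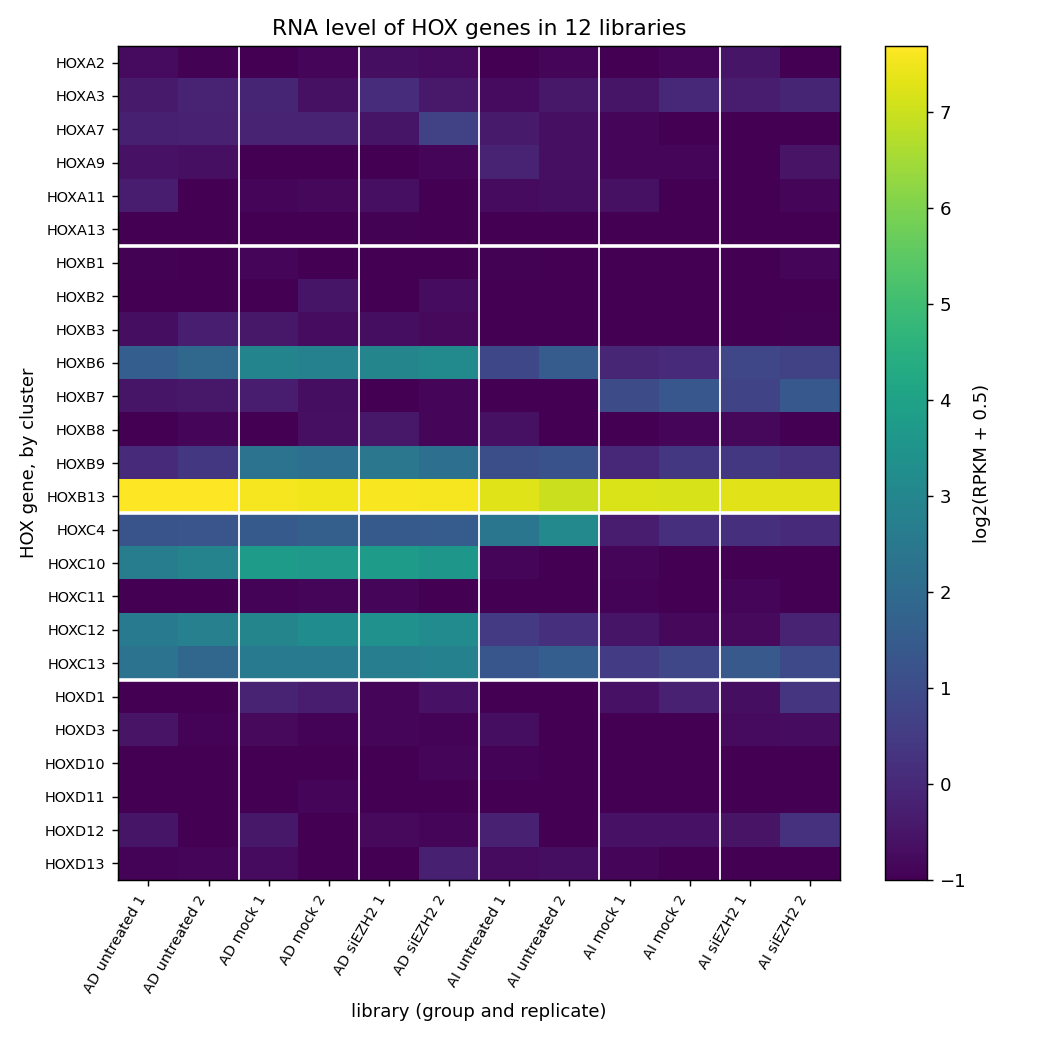
RNA level of the 25 HOX genes described (rows, by cluster) in the 12 RNA-seq libraries (columns, group and replicate), as log2(RPKM + 0.5) on a colour scale. HOXB13 is bright in every library, HOXC10 and HOXC12 are lighter in the AD columns, and the HOXA and HOXD rows stay dark.

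The first comparison asks how HOX RNA differs between untreated AI and AD cells. HOXC10, HOXC12, HOXC13 and HOXB13 were lower in AI cells, and HOXC4 and HOXB9 were higher. The test was limma-trend on log2(RPKM + 0.5), fitted to all 12 libraries with Benjamini-Hochberg adjustment over 14227 genes at 0.05; fold changes on this scale understate the change of genes with low values. It called 6 of the 8 HOX genes, 2 higher and 4 lower, where 34.6% of all tested genes were called (22.2% higher and 12.4% lower). The median log2 change was -0.55 over the 8 genes and 0.13 over all genes. Some of the 8 passed the filter only through the group in which they were high, so these counts are descriptions. In bulk RNA, fewer cells that express a gene and less RNA per cell cannot be told apart.

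HOXC10 (ENSG00000180818.4), a posterior factor of limb and trunk patterning, stood at 5.87 and 6.88 RPKM in untreated AD and at 0.06 and 0 RPKM in untreated AI. Its AD and AI libraries were far apart, with AI at or near 0, and it fell by 3.70 on the log2 scale (SE 0.152, limma adjusted p = 4.85e-07).

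HOXC12 (ENSG00000123407.3), a posterior gene of the same cluster, stood at 5.41 and 6.42 RPKM in AD and at 0.88 and 0.66 RPKM in AI. It fell by 2.34 (SE 0.228, limma adjusted p = 8.66e-05), again without overlap. HOXC13 (ENSG00000123364.4), a regulator of hair and nail keratins, stood at 4.41 and 3.19 RPKM in AD and at 2.03 and 2.51 RPKM in AI. Its groups did not overlap but lay close, and its fall of 0.63 (SE 0.21, limma adjusted p = 0.0443) lost the call in several settings. Without AD untreated replicate 1 it was -0.42 (limma adjusted p = 0.237), without AI replicate 1 -0.50 (limma adjusted p = 0.177) and without AI replicate 2 -0.75 (limma adjusted p = 0.0628).

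HOXB13 fell by 0.55 (SE 0.102, limma adjusted p = 0.00292) in untreated AI cells. HOXC4 (ENSG00000198353.7), an anterior HOXC gene, moved the other way, from 1.9 and 1.97 RPKM in AD to 4.79 and 7.93 RPKM in AI. Both AI libraries were above both AD libraries, and it rose by 1.46 (SE 0.238, limma adjusted p = 0.00154). HOXC4, HOXC5 and HOXC6 can be transcribed from a common upstream promoter, so reads of shared exons may be split between them, and HOXC5 and HOXC6 had no row.

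HOXB9 (ENSG00000170689.9), a trunk patterning gene, was 0.56 and 0.83 RPKM in AD and 1.65 and 1.76 RPKM in AI. It rose by 0.89 (SE 0.195, limma adjusted p = 0.00669). When only the 4 untreated libraries were fitted, HOXC4 (limma adjusted p = 0.0631), HOXB9 (0.0669), HOXB13 (0.125) and HOXC13 (0.167) were no longer called, and the calls were HOXC10, HOXC12 and HOXB7, all lower.

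The remaining tested genes were not called. HOXB6 (ENSG00000108511.9) was 2.55 and 3.29 RPKM in AD and 1.35 and 2.4 RPKM in AI, a log2 change of -0.55 (95% interval -1.03 to -0.07, limma adjusted p = 0.0723), and it was called lower with TMM scaling (limma adjusted p = 0.0407) with quantile normalization (0.0431) and without AI untreated replicate 2 (-0.88, 0.0125). HOXB7 (ENSG00000260027.4) was 0.21 and 0.24 RPKM in AD and listed at 0 in both AI libraries, a log2 change of -0.54 (limma adjusted p = 0.113). With a pseudocount of 0.1 it was -1.70 and called (limma adjusted p = 0.0166), as it was with only the 4 untreated libraries fitted (0.0481).

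Summed markers of other cell types moved with this comparison, and the sums rested on few genes. The 5 mesenchymal or stromal markers (2 of 5 above 1 RPKM in some library; COL3A1 and PDGFRA under 0.1 RPKM in every library) summed to 8.25 to 9.04 RPKM in untreated AD and 1.61 to 1.62 RPKM in untreated AI. The 5 neuroendocrine markers (2 of 5 above 1 RPKM) summed to 32.7 to 40.1 RPKM and 7.32 to 8.13 RPKM, and the 4 basal markers to 4.44 to 5.1 RPKM and 1.21 to 1.32 RPKM. After mock transfection the mesenchymal sum was higher in AI (20.6 to 23.2 RPKM) than in AD (14.4 to 17.1 RPKM), and the basal sum lower (0.49 to 0.62 against 3.99 to 4.23 RPKM). ENO2 made up most of the neuroendocrine sum, at 37.32 and 30.93 RPKM in untreated AD and 7.13 and 6.28 RPKM in untreated AI. VIM made up most of the mesenchymal sum in untreated AD (6.29 and 5.73 RPKM) but not in untreated AI (0.33 and 0.49 RPKM). The basal sum was mainly KRT14 in untreated AD (3.73 and 4.56 RPKM) and mainly ITGB4 in AD mock (3.92 and 3.58 RPKM). The part of these markers in the HOX values was not tested.

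The same comparison after mock transfection set HOX genes in another order. HOXC10, HOXC12, HOXB6, HOXB9, HOXC13, HOXC4 and HOXB13 were lower in AI mock than in AD mock cells, and HOXB7 was higher. All 8 tested genes were called, 1 higher and 7 lower, where 55.7% of all genes were called (12.2% higher and 43.5% lower). The median over the 8 genes was -1.97. The all-gene median log2 change was -0.41 here and 0.13 in untreated cells; TMM scaling brought them to -0.03 and 0.00, and HOX changes are read against that shift. Over all genes 1731 were called higher and 6188 lower after mock transfection, against 3613 higher and 4028 lower with TMM scaling; in untreated cells the split was 3158 to 1764, against 2081 to 2416. With TMM scaling 7 of the 8 HOX genes were called, 1 higher and 6 lower, and HOXB13 changed sign to 0.14 (limma adjusted p = 0.229).

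HOXC10 stood at 13.6 and 12.6 RPKM in AD mock and at 0.06 and 0 RPKM in AI mock, and fell by 4.68 (SE 0.152, limma adjusted p = 9.29e-08). HOXC12 stood at 7.24 and 8.76 RPKM against 0.2 and 0.07 RPKM and fell by 3.74 (SE 0.228, limma adjusted p = 1.74e-06). HOXC13 stood at 5.56 and 5.39 RPKM against 0.97 and 1.32 RPKM and fell by 1.87 (SE 0.21, limma adjusted p = 5.92e-05). In each of these posterior HOXC genes every AD mock library was above every AI mock library.

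HOXB6 was 7.14 and 6.54 RPKM in AD mock and 0.46 and 0.56 RPKM in AI mock, and fell by 2.86 (SE 0.214). HOXB9 was 4.45 and 4.06 RPKM against 0.48 and 0.82 RPKM, and fell by 2.06 (SE 0.195). HOXC4 was 2.26 and 2.61 RPKM against 0.3 and 0.66 RPKM, and fell by 1.60 (SE 0.238). For HOXC4 and HOXB9 this is the opposite direction from untreated cells.

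HOXB7 was 0.3 and 0.12 RPKM in AD mock and 1.55 and 2.06 RPKM in AI mock, a rise of 1.70 (SE 0.239, limma adjusted p = 0.000243). HOXB13 fell by 0.35 (limma adjusted p = 0.016), a call that was lost without AD mock replicate 1 (limma adjusted p = 0.0883), AI mock replicate 1 (0.0677) or AI mock replicate 2 (0.0796).

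The AI minus AD difference itself changed between the untreated and the mock experiments for 7 of the 8 genes, 1 higher and 6 lower, where 50.2% of all genes did (8.99% higher and 41.2% lower, all-gene median -0.54). Over all genes 1279 were called higher and 5860 lower, a split that became 2944 and 3112 with TMM scaling. HOXC4 had a difference of differences of -3.06 (SE 0.337, limma adjusted p = 9.23e-05), HOXB9 of -2.96 (SE 0.276, limma adjusted p = 3.54e-05) and HOXB6 of -2.31 (SE 0.303, limma adjusted p = 0.000238). HOXB7 went the other way, at 2.24 (SE 0.338, limma adjusted p = 0.000525). With quantile normalization 4 of the 8 were called, 1 higher and 3 lower, beside 2620 higher and 2902 lower of all 14227 genes. The 2 experiments share no libraries.

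Within AD cells HOXB9, HOXB6 and HOXC10 rose from untreated to mock by 2.00, 1.11 and 0.99 (limma adjusted p = 5.82e-05, 0.00252 and 0.000701), 3 of 8 genes, where 45.4% of all genes were called (37.6% higher and 7.73% lower). HOXB13 was not called (-0.16), but was called lower with TMM scaling (-0.56, limma adjusted p = 0.00174) and with quantile normalization (-0.38, 0.0136). Over all genes the split in AD was 5355 higher and 1100 lower, and 2681 and 2306 with TMM scaling. Within AI cells 1 gene rose and 5 fell, where 57.1% were called (21.5% higher and 35.5% lower), a split of 3064 higher and 5057 lower that became 4017 and 4080 with TMM scaling. HOXB13 in AI was called higher with TMM scaling (0.32, limma adjusted p = 0.0167) and lower with quantile normalization (-0.36, 0.0122). HOXB7 rose from 0 in both untreated libraries by 2.20 on the log2(RPKM + 0.5) scale (limma adjusted p = 4.7e-05), a size that depends on the added 0.5. HOXC4 fell by 2.79 (limma adjusted p = 1.06e-05), from the highest HOXC4 level of the series to under 1 RPKM. The other falls in AI were HOXB6 by 1.20, HOXC12 by 1.00, HOXB9 by 0.95 and HOXC13 by 0.75, and with TMM scaling HOXC13 (limma adjusted p = 0.0553) lost the call, as did HOXB9 (0.0636) with quantile normalization. Transfection, mitochondrial share and depth changed together between these libraries and cannot be told apart.

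**Figure D2:**
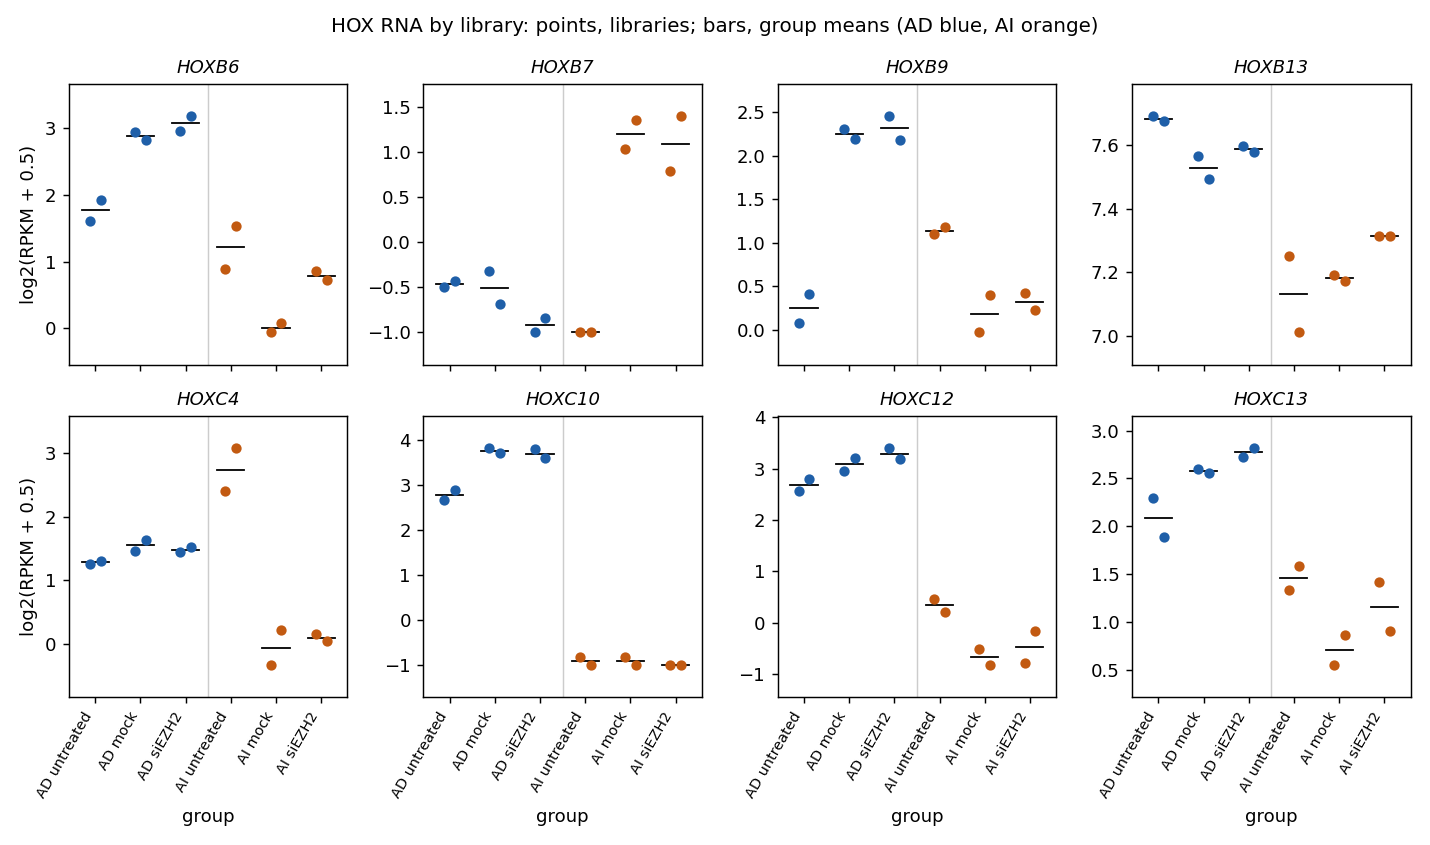
RNA of the 8 tested HOX genes as log2(RPKM + 0.5) in each library (points) with group means (bars), AD in blue and AI in orange; the vertical scale differs between panels. HOXC10 and HOXC12 separate AD from AI in all 3 states, whereas HOXC4 and HOXB9 are higher in AI only among the untreated libraries.

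The siRNA against EZH2 asks whether HOX RNA follows the enzyme. EZH2 RNA was 10.95 and 12.48 RPKM in AD mock and 11.52 and 10.73 RPKM in AD siEZH2, so the AD libraries overlapped (log2 change -0.07, limma adjusted p = 1). In AI cells it was 7.07 and 5.44 RPKM in mock and 3.60 and 4.33 RPKM in siEZH2, without overlap, a change of -0.59 (limma adjusted p = 0.126). The target RNA passed the threshold in neither cell type. The siEZH2 comparisons share the mock libraries with the mock comparison of AI and AD.

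No HOX gene was called by limma after siEZH2, 0 of 8 in AD (0.0141% of all genes called) and 0 of 8 in AI (1.46% called, 0.0703% higher and 1.39% lower). Over all genes AI had 10 higher and 198 lower, against 6 and 22 with TMM scaling and 4 and 7 with quantile normalization. At an unadjusted p under 0.05 there were 0 HOX genes in AD and 1 in AI, beside 544 and 2675 of 14227 genes. That gene was HOXB6, at 0.46 and 0.56 RPKM in AI mock and 1.31 and 1.15 RPKM in AI siEZH2. Its groups did not overlap, and the log2 change was 0.78 (95% interval 0.30 to 1.26, unadjusted for the number of genes; limma adjusted p = 0.0951).

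HOXC13 in AI cells went from 0.97 and 1.32 to 2.17 and 1.37 RPKM, a log2 change of 0.45 (95% interval -0.02 to 0.92, limma adjusted p = 0.288). HOXC10, at 0.06 and 0 RPKM in AI mock, was listed at 0 in both AI siEZH2 libraries. HOXC12 was 0.08 and 0.4 RPKM, HOXC4 0.62 and 0.53 RPKM and HOXB9 0.84 and 0.67 RPKM in AI siEZH2, each overlapping its mock values. HOXB7 was 1.22 and 2.13 RPKM, overlapping as well. HOXC13 and HOXB13 (158.51 and 158.8 RPKM, beside 145.56 and 143.88 in mock) lay above their AI mock values without overlap.

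In AD siEZH2 cells HOXC10 was 13.49 and 11.55 RPKM, HOXC12 10.01 and 8.59 RPKM and HOXC13 6.13 and 6.54 RPKM. HOXB6 was 7.25 and 8.51 RPKM, HOXB9 4.98 and 4.03 RPKM and HOXC4 2.23 and 2.37 RPKM. HOXB7 was 0 and 0.06 RPKM. HOXC13, HOXB6 and HOXB13 lay above their AD mock values without overlap, and HOXB7 below. HOXC10, HOXC12, HOXB9 and HOXC4 overlapped theirs. The 8 log2 changes in AD ran from -0.41 (HOXB7) to 0.21 (HOXC12). The siEZH2 effect differed between AI and AD for 0 of 8 genes by limma, with 0 of 14227 genes called and 976 at an unadjusted p under 0.05.

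Without the filter on low values all 25 HOX genes entered the fit. HOXB3 (highest value 0.33 RPKM, listed at 0 in the untreated and the mock AI libraries) was then called lower in AI, by -0.53 in untreated (limma adjusted p = 0.0291) and -0.42 in mock cells (limma adjusted p = 0.0476). Over all 28071 genes of that fit, 15.4% were called in untreated and 28% in mock AI minus AD. No other HOX gene under the filter was called in the comparisons of RNA.

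The lists of other genes that follow are read beside all genes, of which 34.6% were called in untreated AI minus AD (22.2% higher, 12.4% lower, median 0.13) and 55.7% in mock AI minus AD (12.2% higher, 43.5% lower, median -0.41). With only the 4 untreated libraries fitted, PKNOX2, HOXC-AS3 and RARG kept their untreated calls among the genes of these lists, and the others lost theirs.

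HOX proteins bind DNA with cofactors of the TALE class. In untreated AI cells 1 of 6 tested TALE genes rose and 2 fell: PKNOX1 by 0.54, PBX4 by -0.81 and PKNOX2 by -1.98. After mock transfection 1 rose and 2 fell again, but PBX4 rose by 0.95 and PKNOX1 fell by 1.02, both opposite to untreated cells; PKNOX2 fell by 1.00. The list medians were -0.22 and -0.07. With quantile normalization PKNOX1 was called in neither comparison, and PKNOX2 not in mock (limma adjusted p = 0.2). The untreated calls of PBX4 and PKNOX1 were lost with only the untreated libraries fitted (limma adjusted p = 0.103 and 0.145) and without AD untreated replicate 1 (0.0851 and 0.063), that of PKNOX1 also without AD untreated replicate 2 (0.0747) or AI untreated replicate 1 (0.13). PKNOX2 stood at 6.48 and 7.26 RPKM in the untreated AD libraries, far above 1.23 and 1.50 RPKM in the untreated AI ones.

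Of 6 tested noncoding RNAs from within the clusters, 1 fell in untreated AI cells (HOXC-AS3 by 1.58) and 4 fell after mock transfection, with HOXC13-AS by 3.55, HOXC-AS3 by 1.80 and HOXB-AS1 by 1.72 in the lead; the list medians were -0.44 and -1.52. HOTAIRM1 (0.01 and 0.07) and HOXA11-AS (-0.43 and -0.27) were called in neither comparison. The untreated call of HOXC-AS3 was lost without AD untreated replicate 1 (-1.44, limma adjusted p = 0.0595). HOXC13-AS was 8.68 and 9.93 RPKM in AD mock and 0.40 and 0.28 RPKM in AI mock, but 6.04 and 4.82 RPKM in the untreated AD libraries, which overlapped 4.95 and 4.07 RPKM in the untreated AI ones. HOXC-AS3 was listed at 0 in all 6 AI libraries. These RNAs overlap HOX genes, and since the use of strand in the counting is not given, reads of a gene and its antisense RNA cannot be told apart.

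Among 11 tested genes beside the clusters, 3 rose and 4 fell in untreated AI cells, and 3 rose and 5 fell after mock transfection, with medians of -0.31 and 0.00. PRAC1 and PRAC2, prostate-expressed genes between HOXB9 and HOXB13, turned direction. PRAC1 was 467.38 and 293.82 RPKM in the untreated AD libraries and 175.15 and 102.40 RPKM in the AI ones (log2 change -1.46, limma adjusted p = 0.00243), but 201.34 and 222.57 RPKM in AD mock and 505.01 and 520.75 RPKM in AI mock (1.27, limma adjusted p = 0.00236). PRAC2 went from -0.62 to 0.94. HOXB13, next to them, had a lower mean in AI in both. The other leading changes were SKAP2 (0.83), HIBADH (0.59), CBX5 (0.38) and TTLL6 (-0.82) in untreated cells, and LNPK (0.88), CALCOCO1 (-1.36), MTX2 (-1.07) and TTLL6 (-0.93) in mock. With quantile normalization CBX5 lost the untreated call (limma adjusted p = 0.162), TTLL6 lost the mock call (0.223), and SKAP2, lower in mock AI cells, turned to 0.05. With only the untreated libraries fitted all 7 untreated calls were lost: the limma adjusted p was 0.101 for PRAC1, 0.134 for PRAC2, 0.0887 for SKAP2, 0.138 for HIBADH, 0.0648 for TTLL6, 0.23 for CALCOCO1 and 0.152 for CBX5. The untreated call of CALCOCO1 was also lost without any 1 of the 4 untreated libraries (limma adjusted p = 0.096 to 0.124), and that of CBX5 without AD replicate 1 (0.0852), AI replicate 1 (0.0504) or AI replicate 2 (0.0799). The mock call of SKAP2 was lost without AD mock replicate 2 (limma adjusted p = 0.243), AI mock replicate 1 (0.107) or AI mock replicate 2 (0.125).

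Of 11 tested upstream regulators of HOX genes, 2 rose and 4 fell in untreated AI cells and 2 rose and 8 fell after mock transfection, with medians of -0.17 and -0.82. RARG, a retinoic acid receptor, fell in both, by 1.48 and 2.27. In untreated cells WDR5 rose by 0.64 and ASH2L by 0.50, both parts of the complexes that methylate lysine 4 of histone H3, while KMT2B fell by 0.87 and RARA by 0.82. In mock cells KMT2A rose by 1.12 and RARB by 0.93, while KDM6A fell by 1.29 and MEN1 by 1.18. With TMM scaling WDR5 and CTCF, among the 8, turned to 0.16 and 0.03, and KMT2B lost the call (limma adjusted p = 0.0795). With quantile normalization RARA (limma adjusted p = 0.115), KMT2B (0.518), WDR5 (0.849) and CTCF (0.241) lost the mock call. With only the untreated libraries fitted the untreated calls of RARA (limma adjusted p = 0.122), KMT2B (0.0582), WDR5 (0.0657), ASH2L (0.0911) and KDM6B (0.085) were lost. The mock call of RARB was lost without AD mock replicate 2 (limma adjusted p = 0.0969), and that of WDR5 without AD mock replicate 1 (0.0592), AD mock replicate 2 (0.0555) or AI mock replicate 2 (0.0859).

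Of 11 PRC2 genes 3 rose and 1 fell in untreated cells (median 0.15): EZH2 by 0.86, SUZ12 by 0.80 and RBBP7 by 0.34, with PHF1 at -0.67. In mock cells 1 rose (AEBP2 by 0.51) and 8 fell (median -0.86), led by RBBP7 (-2.29), EED (-1.99) and JARID2 (-1.86). Under TMM scaling EZH2 (limma adjusted p = 0.103), SUZ12 (0.337) and PHF1 (0.48) lost the mock call, and RBBP7 (0.263) lost the untreated one. With quantile normalization these calls were lost as well, and PHF19 also lost the mock call (limma adjusted p = 0.379). With only the untreated libraries fitted all 4 untreated calls were lost: EZH2 (limma adjusted p = 0.0935), SUZ12 (0.112), RBBP7 (0.237) and PHF1 (0.089). RBBP7 was also lost without AD untreated replicate 1 (limma adjusted p = 0.132), AD untreated replicate 2 (0.0629) or AI untreated replicate 1 (0.195). Without any 1 of the 4 mock libraries AEBP2 (limma adjusted p = 0.0754 to 0.0837) and PHF1 (0.053 to 0.187) lost the mock call, as SUZ12 did without AD mock replicate 1 (0.0708) or AI mock replicate 2 (0.0547). After siEZH2 the only call in these lists was MTF2 in AI cells (-0.90, limma adjusted p = 0.0387), lost with TMM scaling (limma adjusted p = 0.0669), with quantile normalization (0.139), with no filter on low values (0.0606), with only the compared libraries fitted (0.0997) and without any 1 of the 4 libraries (0.138 to 0.207).

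H3K27me3 lay mainly over the HOXD cluster and the middle of the HOXB cluster. The HOXD cluster (chr2:176087487-176190907) had 25.71% and 56.21% of its bases under peaks in the AD samples and 20.05% and 74.67% in the AI samples. The HOXB cluster (chr17:48528526-48728750) had 11.19% and 10.9% in AD and 5.16% and 25.85% in AI. The HOXC cluster (chr12:53938831-54056030) had 0% and 2.31% in AD and 0% and 12.67% in AI, and the HOXA cluster (chr7:27092993-27200091) 0% and 1.51% in AD and 0% and 5.01% in AI.

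In all 4 clusters the highest share was AI replicate 2, and AI replicate 1 was at or below both AD samples, so no cluster separated AI from AD. The AI minus AD difference in HOXD was 6.4 percentage points, beside a pooled SD of 31.3. Without AI replicate 2 it was -20.9, without AI replicate 1 33.7, and without AD replicate 1 -8.9. The differences in HOXA, HOXB and HOXC (1.7, 4.5 and 5.2 points) were likewise smaller than their pooled SD and turned negative without AI replicate 2 (-0.8, -5.9 and -1.2). With 2 samples against 2 the smallest two-sided exact permutation p is 0.333, so no test was made. Over the whole genome the 4 lists covered 184.4 to 229.6 Mb.

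**Figure D3:**
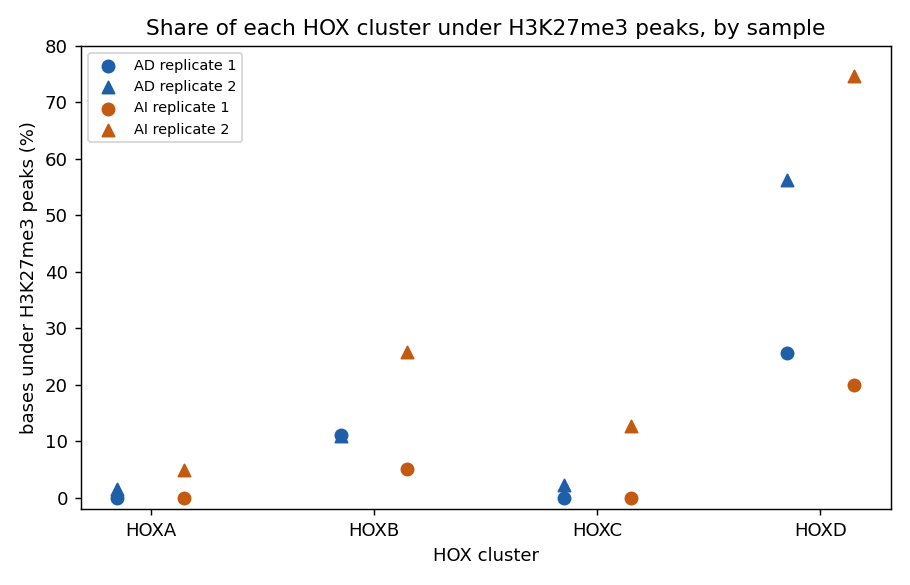
Percentage of the bases of each HOX cluster under H3K27me3 peaks, with circles for replicate 1 and triangles for replicate 2, AD in blue and AI in orange. HOXD is the most covered cluster in every sample, and AI replicate 2 (74.67% in HOXD) stands far above AI replicate 1 (20.05%).

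At the start sites, 6 of 39 HOX genes had an H3K27me3 peak within 1 kb in both AD samples: HOXB7, HOXB8, HOXD4, HOXD8, HOXD11 and HOXD12. Over 15843 protein-coding genes the share was 6.96%. AD replicate 1 marked 7 starts (9.28% of all genes) and AD replicate 2 marked 9 (10.9%). In both AI samples there were 4 (HOXB6, HOXD4, HOXD12 and HOXD13), where the share was 5.98%. AI replicate 1 alone marked 4 starts (7.63% of all genes) and AI replicate 2 19 (16.5%), all 9 HOXD starts among them, so the count for both is set by replicate 1. HOXD4 and HOXD12 were marked in all 4 samples.

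The HOXB7 and HOXB8 starts lay under 1 broad peak in each AD sample, 12.13 kb wide in replicate 1 and 11.52 kb in replicate 2, with the authors' scores of 1004.93 and 848.19. AI replicate 2 had a 21.83 kb peak there that also held HOXB9, and AI replicate 1 had none. At the HOXB6 start AI replicate 1 had a 10.34 kb peak, AI replicate 2 one of 5.39 kb and AD replicate 2 one of 3.59 kb (score 139.58). In HOXB the bases covered in all 4 samples came to 0.06 kb, and in HOXD to 7.54 kb. HOXB7 RNA was under 0.5 RPKM in every untreated library.

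In HOXD, HOXD11 lay under a peak of 7.17 kb in AD replicate 1 and 7.45 kb in AD replicate 2 (scores 1795.8 and 1377.81), and under 1 of 15.14 kb in AI replicate 2. HOXD12 and HOXD13 shared a peak of about the same extent in AD replicate 2 (24.47 kb), AI replicate 1 (24.48 kb) and AI replicate 2 (23.63 kb), which reached beyond the cluster. In AD replicate 1 a narrower peak of 4.35 kb held HOXD12 alone. HOXD11 RNA was at most 0.05 RPKM in any library, HOXD12 at most 0.69 and HOXD13 at most 0.34.

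The HOXC genes whose RNA separated AD from AI carried little of the mark at the starts scored. HOXC4, HOXC10 and HOXC13 starts had no H3K27me3 peak in any of the 4 samples, and HOXC12 had 1 in AI replicate 2 only (1.19 kb, score 94.28). Downstream of the scored HOXC4 start, near the end of the cluster, AD replicate 2 had a 2.7 kb peak (score 52.98). AI replicate 2 had a 2.8 kb peak there (score 80.86). HOXB13 had none. Of the listed genes, 17 had no peak at the start in either AD sample, with a median of 0.155 untreated RPKM and 5 at 1 RPKM or more; 4 had a peak in 1 sample, with a median of 0.4 RPKM and up to 2.92, and 4 had a peak in both, with 0 to 0.225 RPKM. In AI, 13 had no peak (median 0.11 RPKM, 3 at 1 RPKM or more), 9 had a peak in 1 sample (median 0.025 RPKM, up to 1.71) and 3 had a peak in both (median 0.18 RPKM), among them HOXB6 at a mean of 1.88 RPKM. These are descriptions across genes of shared clusters, which are not independent.

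EZH2 peaks over the clusters were narrow and seldom shared between lists. AD replicate 1 had 37 in the clusters, AD replicate 2 had 6 and AI had 6. Of the 37, 1 overlapped a peak of AD replicate 2 and 1 a peak of AI. The whole lists held 53911, 12399 and 11933 peaks, so AD replicate 1 was the longest list everywhere. Overlap over the whole lists was not computed, so the low counts are not shown to be particular to the HOX clusters.

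AD replicate 1 had an EZH2 peak at 11 of 39 HOX starts (10.7% of all genes), AD replicate 2 at 1, HOXB13 (2.58%), and AI at 2, HOXA5 and HOXB8 (1.38%). No start was marked in both AD samples (0 of 39, beside 0.884% of all genes). Of the 37 peaks of AD replicate 1, 6 overlapped an H3K27me3 peak of AD replicate 1. The 6 of AD replicate 2 had 2 such overlaps with AD H3K27me3 replicate 2, and the 6 of AI had 0 with AI H3K27me3 replicate 1 and 3 with replicate 2. The share of such overlaps over the whole lists was not computed either. The highest of the authors' scores for an EZH2 peak in a cluster was 121.9, in HOXC in AD replicate 1.

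**Figure D4:**
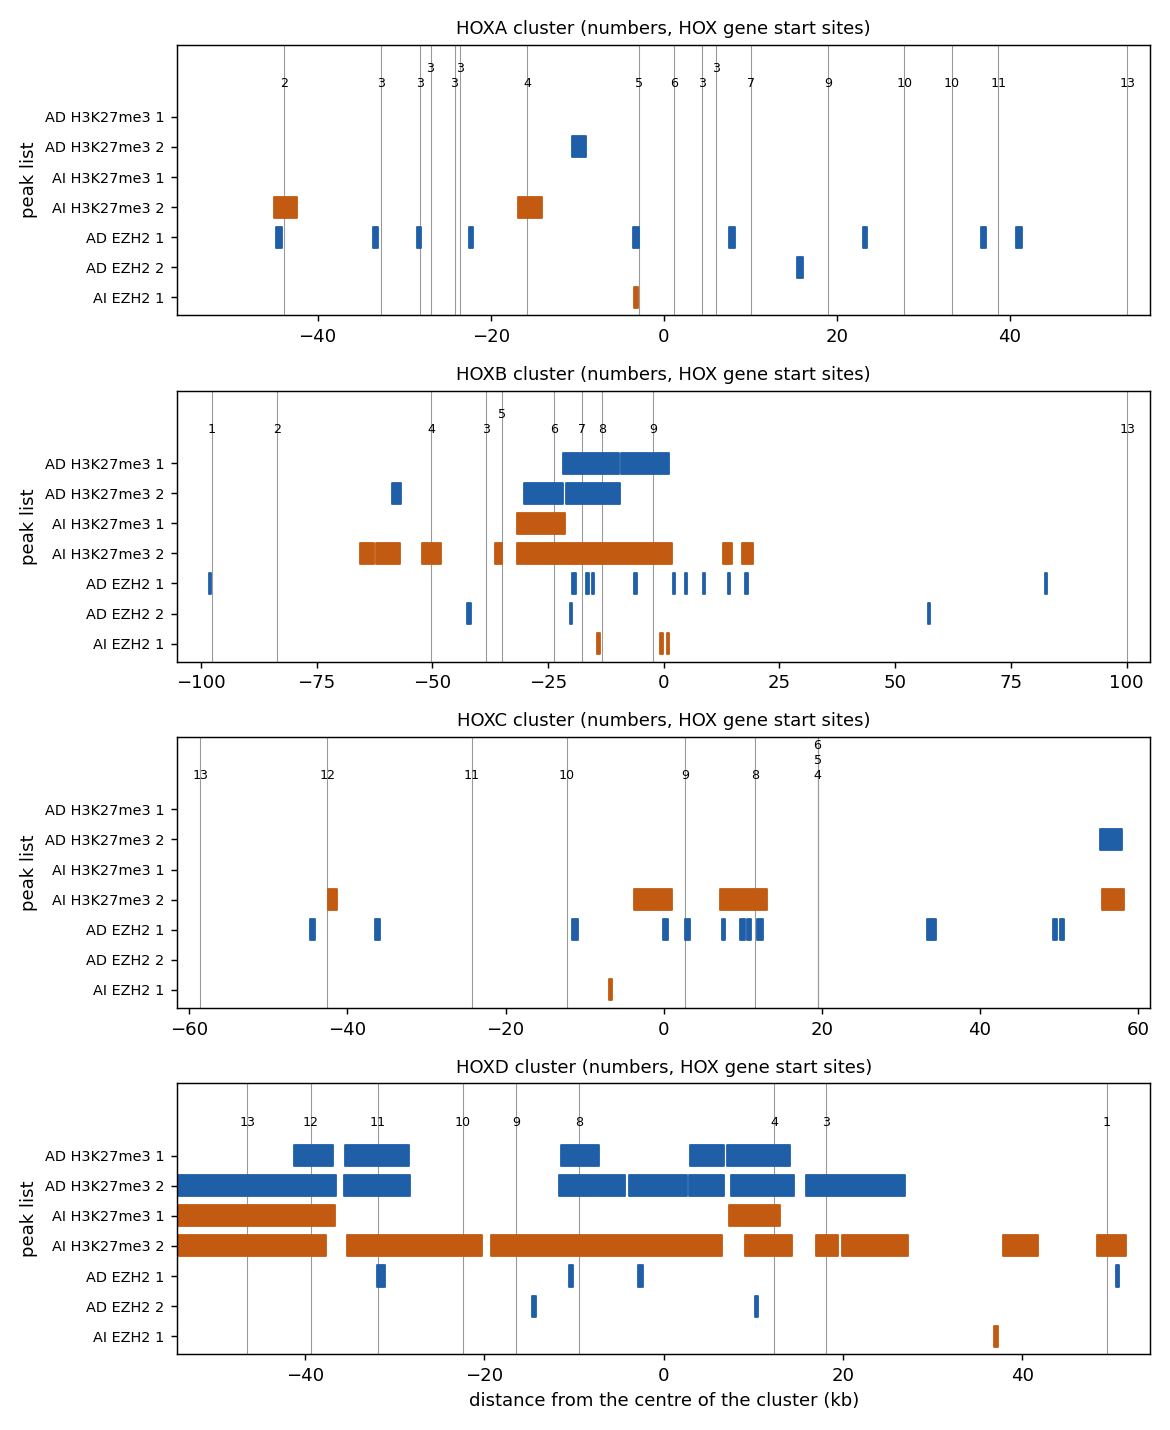
Peaks of the 7 ChIP lists (rows, AD blue and AI orange) along the 4 HOX clusters, by distance in kb from the centre of each cluster; grey lines and numbers are start sites of the HOX genes, some of which have several. Broad H3K27me3 peaks fill much of HOXD and the HOXB6 to HOXB9 stretch, and the EZH2 peaks of the 3 lists rarely coincide.

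RIP asks which HOX transcripts EZH2 binds. Of the 19 HOX genes measured by RIP, 6 passed the filter, and limma called 0 of 6 for EZH2 antibody against IgG in AD, 0 in AI and 0 for AI against AD. None of the 13667 genes was called in any of the 3 (0%), while 1383, 2930 and 233 had an unadjusted p under 0.05; among HOX genes 3 such values occurred in the 18 tests. IgG libraries were shallow, with depth estimates of 0.366 and 1.84 M reads for the AD libraries and of 0.611 and 0.0823 M reads for the AI libraries, beside 4.58 to 8.15 M reads with EZH2 antibody. A HOX gene listed at 0 in IgG was therefore not detected at the depth of that library, and is not shown to be absent.

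HOXB13 gave 3.40 and 9.25 RPKM with EZH2 antibody and 1.55 and 12.29 RPKM with IgG in AD, so the groups overlapped. In AI it gave 2.21 and 9.65 RPKM with EZH2 antibody and 2.82 and 0 RPKM with IgG, overlapping as well (log2 difference 2.03, 95% interval -0.69 to 4.74, limma adjusted p = 0.351). In AD its replicates differed more than its antibodies, whose means were 6.33 RPKM (EZH2) and 6.92 RPKM (IgG). In AI the means were 5.93 RPKM with EZH2 antibody and 1.41 RPKM with IgG.

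HOXC4 gave 0.05 and 0.06 RPKM with EZH2 antibody in AD and 1.12 and 3.54 RPKM in AI, without overlap (log2 difference 2.20, 95% interval -0.18 to 4.59, limma adjusted p = 1). IgG gave 0 and 1.19 RPKM in AD and 3.60 and 0 RPKM in AI. HOXC4 RNA was also higher in untreated AI than in untreated AD cells. HOXB6 gave 0.63 and 0.51 RPKM with EZH2 antibody in AD, 0 in both AD IgG libraries, and 0 and 0.11 RPKM with EZH2 antibody in AI (EZH2 minus IgG in AD 1.10, limma adjusted p = 0.399).

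HOXC10 went the other way in AD, with 0.13 and 0.15 RPKM with EZH2 antibody and 1.39 and 0.56 RPKM with IgG (limma adjusted p = 0.444), and was listed at 0 in all 4 AI libraries. HOXC12 gave 0.44 and 0.64 RPKM with EZH2 antibody in AD and 0 and 0.97 with IgG, and HOXC13 0.10 and 0.47 against 0 and 1.11. The other 13 genes stayed at 0.54 RPKM or below except HOXD12, which was 2.00 RPKM in AD IgG replicate 1 and listed at 0 in the other 7 libraries.

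**Figure D5:**
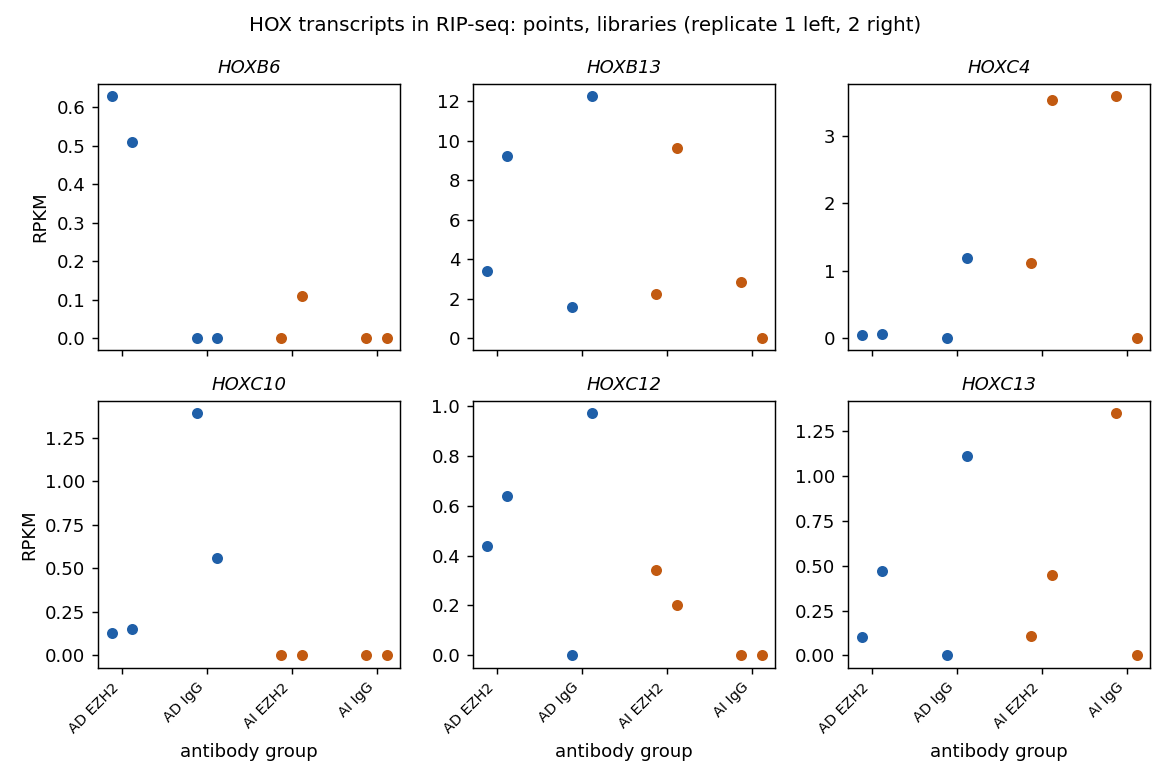
RPKM of the 6 HOX genes tested in RIP-seq, with a point per library (replicate 1 left, replicate 2 right) for the EZH2 antibody and IgG in AD (blue) and AI (orange). The EZH2 and IgG points overlap for HOXB13 and HOXC13 in both cell types, and HOXC10 is listed at 0 in all AI libraries.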

How the data were processed

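The authors deposited RPKM for RNA-seq and RIP; the submitters' processing notes name the build GRCh38, TopHat2 and edgeR for both (cutadapt also for RNA-seq), and Bowtie2 with cutadapt for ChIP, without versions. For annotation, counting tool, strand use and peak settings: not given in the sources used here. The deposited peak lists give 1 score per peak, at least 50, with 1 list per ChIP sample; inputs were not analysed here. Of the HOX genes in the table, 1 is not reported here. HOX members, lists and named genes (a group mean of 1 RPKM, or a call; up to 3 rises and 3 falls per other list) were chosen with earlier results of these data known. limma 3.58.1 (R 4.3.3) was fitted to log2(RPKM + 0.5) of genes with 0.5 RPKM in 2 libraries and was tested on simulated data. The design had allowed for counts, but the files hold RPKM, so no count test was run. Start sites came from RefSeq promoters, otherwise from gene ends. The peak window was 1 kb either side, and 1 base of overlap sufficed. Alternatives covered pseudocount, filter, scaling, groups, replicate block, left-out samples, peak score, window and overlap.

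RPKM holds no read totals, so depth was estimated from the steps between low values of short noncoding genes: the smallest depth whose score reached 0.75 of the highest was taken. That factor was picked after seeing the estimates and comparing them with an earlier estimate for these files, out of 5 factors tried from 0.65 to 0.93. No test uses these depths.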

Additional observations from a re-analysis of the deposited data

Results flagged for a closer look

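The AI minus AD difference of 7 HOX genes differed between the mock-transfected and the untreated experiments by the limma test of the difference itself, where 50.2% of all genes did. In mock minus untreated terms it was -3.06 for HOXC4, -2.96 for HOXB9, -2.31 for HOXB6, -1.41 for HOXC12, -1.24 for HOXC13, -0.99 for HOXC10 and 2.24 for HOXB7. The all-gene median was -0.54, and with TMM scaling HOXC13 (limma adjusted p = 0.11) and HOXC10 (0.0587) lost the call, while HOXB13 gained it (0.88, limma adjusted p = 0.000773). With quantile normalization HOXC12 (limma adjusted p = 0.133), HOXC10 (0.148) and HOXC13 (0.328) lost the call. HOXC10 also lost it with a pseudocount of 0.1 (limma adjusted p = 0.0722). HOXC10 stood at 0.06 and 0 RPKM in AI both untreated and mock, so its value came from the AD libraries. The share of mitochondrially encoded RNA, 18.36% to 33.45% untreated and 2.1% to 4.07% transfected, moved with the experiment, and its part in the result was not tested.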

How the results depend on the processing

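Over the alternatives run, the counts of HOX genes called stayed within 1.5 times of those reported, with these exceptions. Fitting only the 4 untreated libraries gave 3 calls. Quantile normalization gave 4 for the difference of differences, beside 2620 higher and 2902 lower of all 14227 genes. The share over all genes was not computed for the 4-library fit, nor for the peak settings that follow. The count of HOX starts with a peak in every sample was 7 for AI H3K27me3 with a 5 kb window, 4 for AD EZH2 and 5 for AI EZH2 with that window, and 0 for AI EZH2 with scores of 100 or more or 500 bases of overlap. With 1 sample left out, calls ran from 5 to 6 (untreated), 7 to 8 (mock), 3 to 4 and 5 to 6 (mock minus untreated in AD and AI), and stayed at 7 for the difference of differences; marked starts ran from 4 to 19 (AI H3K27me3), 7 to 9 (AD H3K27me3) and 1 to 11 (AD EZH2). HOXB13 turned to 0.14 in mock AI minus AD with TMM scaling and to -0.36 in AI mock minus untreated with quantile normalization (limma adjusted p = 0.0122), where TMM scaling gave 0.32 (0.0167). In mock AI minus AD, SKAP2 turned to 0.05 with quantile normalization, and WDR5, CTCF and PHF1 to 0.16, 0.03 and 0.11 with TMM scaling. The cause was not tested.

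Replicate numbers pair nothing by the labels. Same-numbered untreated libraries deviated together across genes (r = 0.701), the other RNA-seq pairs less (-0.004 to 0.130). With the replicate number as a block the untreated count was 5, HOXC13 being lost (limma adjusted p = 0.051), and the mock count 8. In RIP, same-numbered EZH2 antibody libraries of AD and AI gave r = 0.713 and the other pairs 0.097 to 0.332; with the block the 3 RIP counts stayed at 0.

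The depth of 3 of 20 libraries depended on the factor used to pick it, which was chosen after seeing the data: over the 5 factors AD mock replicate 1 ran from 9.38 to 56.9 M reads, AD siEZH2 replicate 2 from 11.9 to 71.3 and AI siEZH2 replicate 1 from 7.78 to 23. The IgG libraries limit what RIP can show for HOX transcripts.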
